A study of Mus musculus with 8 samples.

Results

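Nr4a1, Nr4a2 and Nr4a3 are the orphan nuclear receptors of the Nr4a family. By counts scaled to library size, their mRNAs were at least 31.0 times higher in each library labelled WT than in either labelled cKO. These 3 genes were picked by gene name from the 47732 entries of the expression table, and they were selected on the same 4 count columns that are described here. Their levels and fold changes are therefore a description, and no test is given for them. Bone marrow mesenchymal stem cells (MSCs, the plated stromal cells flushed from the tibiae and femurs) of C57BL/6 mice were compared between 2 libraries labelled WT, whose genotype the labels give as wild type and the study's text as Mettl3fl/fl littermates, and 2 labelled cKO, with genotype Prx1-cre;Mettl3fl/fl. Every culture had spent 2 days in osteogenic medium holding dexamethasone, a glucocorticoid, at 100 nM, β-glycerophosphate at 5 mM, and ascorbic acid at 50 μg/ml. Mettl3 encodes the catalytic subunit of the enzyme that writes N6-methyladenosine (m6A) into mRNA, and Prx1-Cre acts in limb bud mesenchyme, not in blood cells. A list of m6A peaks came from 2 immunoprecipitates and 2 inputs of wild-type MSCs. Neither the age of the donor mice nor the number pooled per library was found in the sources used here, so p-values measure only the spread between these libraries, which may be technical.

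Nuclear receptors are transcription factors that usually need a small lipophilic ligand. The Nr4a receptors are called orphans because no such ligand is required: their ligand pocket is filled by side chains, and their activity follows mainly from how much of them a cell makes. The genes are immediate early genes, switched on within an hour by growth factors, stretch, prostaglandins or parathyroid hormone, largely through cyclic AMP, protein kinase A and the factor CREB on their promoters. Nr4a1 (Nur77) is known for its part in T-cell selection and in macrophages, Nr4a2 (Nurr1) for midbrain dopamine neurons and for osteoblast genes such as osteopontin, and Nr4a3 (NOR1) for smooth muscle and for the gene fusion of a chondrosarcoma.

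CREB and its relatives bind the cyclic AMP response element TGACGTCA and, more weakly, its half-site TGACG. The promoters are printed because all of them carry this half-site, marked in capitals on either strand (CGTCA is the same site read on the opposite strand). The RefSeq windows of GRCm38.p6 reach from 250 bases before to 50 after a start site, and each is printed up to 20 bases past the first annotated start. The printed stretches are chr15:101266596-101266865 on the plus strand for Nr4a1, chr2:57123984-57124253 on the minus strand for Nr4a2 and chr4:48045055-48045172 on the plus strand for Nr4a3.
Nr4a1 promoter: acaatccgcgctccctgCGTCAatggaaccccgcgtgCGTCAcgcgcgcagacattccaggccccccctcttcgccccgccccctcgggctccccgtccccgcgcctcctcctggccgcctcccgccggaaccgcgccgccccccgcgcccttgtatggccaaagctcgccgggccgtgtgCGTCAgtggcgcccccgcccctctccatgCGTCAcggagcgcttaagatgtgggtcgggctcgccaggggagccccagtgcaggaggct
Nr4a2 promoter: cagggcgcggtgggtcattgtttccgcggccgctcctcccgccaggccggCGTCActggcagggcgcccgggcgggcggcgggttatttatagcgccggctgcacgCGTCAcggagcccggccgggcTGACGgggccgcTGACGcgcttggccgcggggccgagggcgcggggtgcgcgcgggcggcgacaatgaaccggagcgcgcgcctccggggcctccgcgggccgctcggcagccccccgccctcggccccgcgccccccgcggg
Nr4a3 promoter: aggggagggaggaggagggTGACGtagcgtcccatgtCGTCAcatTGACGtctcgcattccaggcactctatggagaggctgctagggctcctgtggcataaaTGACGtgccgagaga

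Each window held 4 half-sites. Of all 32851 promoter windows in the table, which cover 27025 genes, 20.8% held at least 1 and 0.231% held 4 or more. GC-rich windows differ in what they can hold, and among windows within 5 percentage points of the same GC content the share with 4 or more was 0.447% for Nr4a1, 0.762% for Nr4a2 and 0.596% for Nr4a3. The GC content itself was 72.3%, 81.7% and 64.7%, against a median of 52.7%. In Nr4a1 all 4 sites lay on the opposite strand, with their first bases at −233, −213, −69 and −40 from the start site. In Nr4a2 they lay at −200 and −144 on the opposite strand and at −123 and −111 on the gene's strand. In Nr4a3 they lay at −231, −205 and −147 on the gene's strand and at −213 on the opposite strand. These are counted from a RefSeq start that is 152 bases downstream of the start in the expression table. The site at −147 thus lies past the start in the expression table. The 4 sites of Nr4a1 all read TGACGCA, a longer form searched only after the sites had been seen. It occurred 4 times in 1 of the 32851 windows, that of Nr4a1, and in neither of the other two, while 2.12% of windows held it at least once.

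The full element TGACGTCA was in none of the 3 windows (1.79% of all windows). The same held for AAAGGTCA, the site that Nr4a receptors bind as monomers (1.51%), and for the serum response element (1.63%). Nr4a2 alone held TATAAA (13.6% of all windows) and the site of MEF2 (3.19%), a muscle and neuron factor that also drives Nr4a1 in T cells. These 2 matches overlap each other in the Nr4a2 window, and a match of letters is not a bound site.

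**Figure D1:**
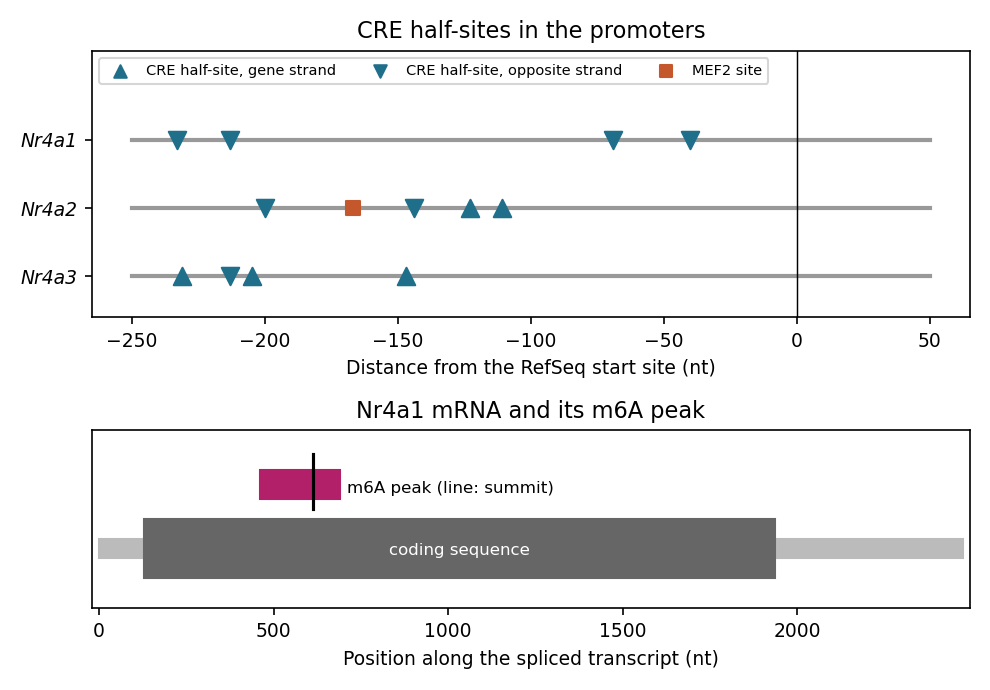
The upper panel shows the 3 promoter windows as lines by distance from the RefSeq start site (nt). CRE half-sites are triangles (up, gene strand, and down, opposite strand) and the MEF2 site is a square. Each gene has 4 triangles, all upstream of the RefSeq start. The lower panel shows the Nr4a1 transcript by position (nt), with its coding sequence as the dark box, the m6A peak as a bar and the summit as a line at nt 613, 26.8% of the way along the coding sequence.

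Nr4a1, ENSMUSG00000023034, lies at chr15:101266846-101274792 on the plus strand (GRCm38) and was the most abundant of them. It had 9274 and 8236 counts in WT libraries 1 and 2, and 186 and 282 in cKO libraries 1 and 2. As CPM, counts scaled to a common library size of 1000000 with TMM factors, these were 274.3 and 291.4 in WT against 7.677 and 8.848 in cKO. The groups lay far apart, and the 2 libraries within each group were close to one another. The means were 283 ± 12.1 CPM and 8.26 ± 0.828 CPM (SD, n = 2 each), so that 2.92% of the WT level was left, a 34.2-fold lower level and a fitted log2 fold change of −5.09.

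Nr4a2, ENSMUSG00000026826, lies at chr2:57106830-57124003 on the minus strand. It had 3628 and 3621 counts in WT, and 46 and 55 in cKO. The CPM values were 107.3 and 128.1 in WT against 1.899 and 1.726 in cKO. Here too no cKO library came near a WT library. The means were 117.7 ± 14.7 and 1.81 ± 0.122 CPM (SD, n = 2 each), with 1.54% left, a 65.0-fold lower level and a log2 fold change of −6.02.

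Nr4a3, ENSMUSG00000028341, lies at chr4:48045153-48086447 on the plus strand and was nearly absent from the cKO libraries. It had 5125 and 4329 counts in WT, and 6 and 15 in cKO. The CPM values were 151.6 and 153.1 in WT against 0.2476 and 0.4706 in cKO. Its WT libraries were the closest of the 3 genes (ratio 1.01) and its cKO libraries the furthest apart (ratio 1.9). The exact 95% Poisson intervals of the 2 cKO values, 0.0909 to 0.539 and 0.263 to 0.776 CPM, overlapped; they cover counting error only, since reads are not independent molecules. The means were 152.4 ± 1.1 and 0.359 ± 0.158 CPM (SD, n = 2 each), with 0.236% left, a 424-fold lower level and a log2 fold change of −8.66.

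**Figure D2:**
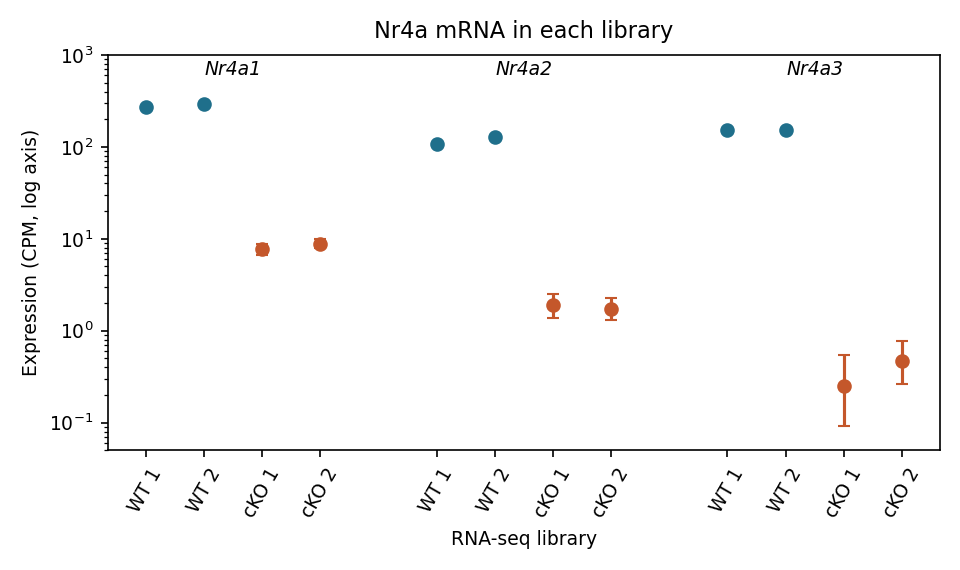
Expression of Nr4a1, Nr4a2 and Nr4a3 (CPM, log axis) in each of the 4 RNA-seq libraries, WT in blue and cKO in orange, with exact 95% Poisson intervals as bars where they are wider than the point. WT values run from 107.3 to 291.4 CPM and cKO values from 0.2476 to 8.848 CPM, and the gap widens from Nr4a1 to Nr4a3.

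In the deposited TPM (transcript abundances that sum to 1000000 per library, which divide by transcript length and so allow genes to be compared), Nr4a1 stood at 161.64 and 167.66 in WT and 4.78 and 5.53 in cKO. Nr4a2 stood at 45.55 and 52.57 TPM in WT and 1.06 and 0.88 in cKO. Nr4a3 stood at 40.26 and 38.43 TPM in WT and 0.2 and 0.17 in cKO. The order by level per length was Nr4a1, Nr4a2, Nr4a3 in both groups, without overlap between neighbours, although by CPM the longer Nr4a3 mRNA was above Nr4a2 in WT. The fold difference was 31.9, 50.6 and 213 on the TPM scale. For Nr4a3 this is about 2 times smaller than by CPM, and cKO library 2 was the higher one by count and the lower one by TPM, on 6 and 15 counts.

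Summed over the family, Nr4a mRNA made up 247.4 and 258.7 TPM in WT and 6.04 and 6.58 TPM in cKO, a 40.1-fold difference. What remained was mostly Nr4a1, whose share of the family went from 65.3% and 64.8% in WT to 79.1% and 84.0% in cKO. The share of Nr4a2 was 18.4% and 20.3% in WT and 17.5% and 13.4% in cKO. The share of Nr4a3 went from 16.3% and 14.9% to 3.31% and 2.58%.

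All 3 genes were lower in both cKO libraries than in either WT library, which was also so for 35.0% of the 15327 genes tested. Over all genes, 16.8% were lower and 13.7% higher in cKO at an adjusted p under 0.05 (edgeR's quasi-likelihood test, Benjamini-Hochberg). Since the genes were selected on this contrast, these shares are background only. By the fitted log2 fold change they ranked 69th, 49th and 6th among the genes that were lower, and 73 genes in all were at least 32-fold lower. On log2(TPM + 0.1), limma called 1779 genes higher and 1442 lower, against 2100 and 2577 in edgeR, and the median gene was at 0.097 rather than −0.004. The cKO libraries were much more alike than the WT libraries, with a chi-square per degree of freedom of 1.82 against 32.6 between the 2 libraries of a group. Without either cKO library the number of genes called over all genes fell from 4677 to 1904 (library 1) or 1867 (library 2), and without either WT library it was 8750 (library 1) or 7934 (library 2).

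The genotype could not be read from the target gene. Mettl3 itself was at 17.6 and 16.9 CPM in WT and 17.5 and 16.3 CPM in cKO, a log2 difference of −0.03 ± 0.0929 (SE, adjusted p = 0.824), counted over the whole gene although only exons 2 and 3 are flanked for deletion. WT and cKO below are thus the library labels. Pth1r, the parathyroid hormone receptor the study is about, was at 14.2 and 16.9 CPM in WT and 15.9 and 15.1 CPM in cKO (log2 difference 0.0, adjusted p = 0.983).

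Like the Nr4a genes, markers of cartilage were lower in the cKO libraries. Of 10 chondrocyte markers, 9 passed the filter on low counts and 8 of them fell (88.9%, against 16.8% over all genes). None rose (13.7% over all genes). The median log2 fold change was −5.37, against −0.0038 over all genes. The summed level of the 10 was 4393 and 4524 CPM in WT and 261.8 and 265.0 CPM in cKO, and no marker was at 0 in all libraries. The other tested, Matn3, had a log2 difference of −2.48 (adjusted p = 0.0562). Untested Matn1 went the other way, with 6 and 6 counts in WT and 14 and 10 in cKO. Examples are Acan, the large proteoglycan of cartilage, at 325 and 489 CPM in WT and 1.11 and 0.628 in cKO (log2 fold change −8.91 ± 0.319 SE, adjusted p = 1.59e-05), and Col2a1, its main collagen, at 2400 and 2200 against 47.9 and 51.5 CPM (−5.53 ± 0.0868, adjusted p = 1.61e-06). In bulk RNA, fewer cells of a type and less RNA per cell cannot be told apart, and the part of these cells in the Nr4a levels was not tested.

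Other cell types moved less or the other way. Of 9 osteoblast markers tested, 7 fell and none rose (median −0.94), with sums of 8079 and 16950 CPM in WT and 7094 and 7063 in cKO. Most of that sum was Spp1, without which it was 2216 and 2323 CPM in WT and 1400 and 1438 in cKO. Of 10 adipocyte markers, 7 rose and 3 fell (979.4 and 897.4 CPM against 1300 and 1323). Of 10 stromal markers, all detected, 4 rose and 4 fell (1059 and 945.8 CPM against 1119 and 1111). Thy1, a stromal surface protein, rose from 3.93 and 1.91 to 74.7 and 69.4 CPM (log2 fold change 4.59 ± 0.244 SE, adjusted p = 7.34e-05). Nt5e of the same list fell from 12.3 and 12.3 to 2.85 and 2.04 CPM (−2.35 ± 0.177, adjusted p = 0.000295). Macrophage markers were abundant in cultures labelled MSC, at 20550 and 24600 CPM in WT and 26810 and 26970 in cKO, with 4 of 10 higher, and macrophages also use Nr4a genes. Of these 4, Ptprc, C1qa, C1qb and C1qc, none passed the test without either cKO library. Endothelial markers summed to 11.03 and 9.693 CPM in WT and 26.46 and 24.1 in cKO, with 3 of 4 tested higher and Robo4 at 0. The other tested, Cdh5, had a log2 difference of −1.16 (adjusted p = 0.128), and untested Pecam1 had 9 and 7 counts in WT and 4 and 5 in cKO. Of the 3 higher, Vwf missed the threshold in DESeq2 and on both TPM scales in limma. Red cell and neutrophil markers summed to 2.958 and 3.892 CPM in WT and 1.403 and 0.690 in cKO, with 1 tested, which was lower, and Hbb-bt, S100a9 and Mpo at 0. Their part in the Nr4a levels was not tested either.

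**Figure D3:**
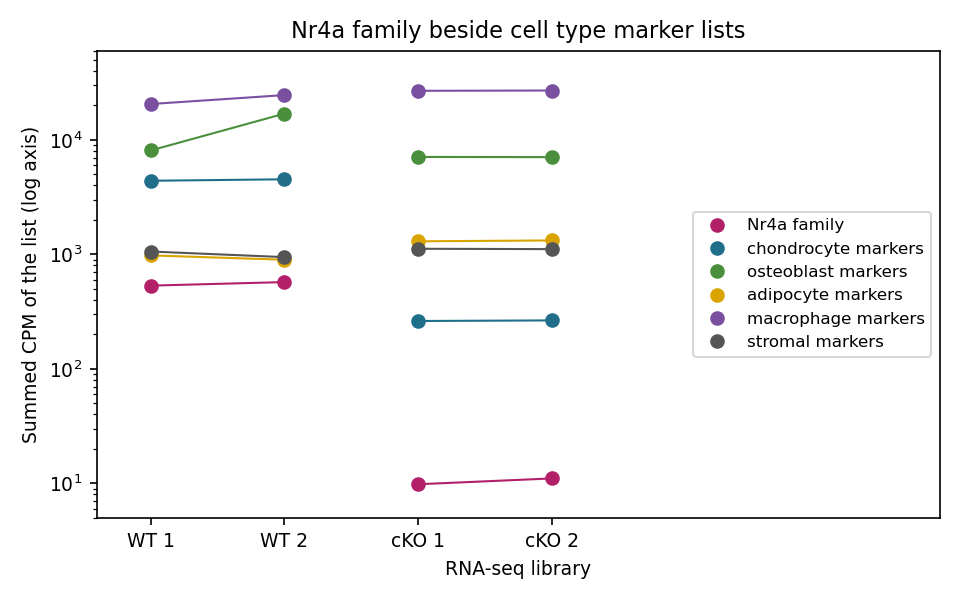
Summed expression (CPM, log axis) of the Nr4a family and of 5 cell type marker lists in each RNA-seq library, with lines joining the 2 libraries of a group. The Nr4a and chondrocyte sums (4393 and 4524 CPM in WT, 261.8 and 265.0 in cKO) are both lower in cKO, while the stromal sum lies between 945.8 and 1119 CPM in all 4.

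Among the 49 nuclear receptor genes of the mouse, Nr4a1 was the most abundant in both WT libraries, Nr4a2 was 6th in both, and Nr4a3 was 8th and 10th by TPM. In cKO they ranked 21st in both, 27th in both, and 31st and 32nd. The family's share of all nuclear receptor mRNA was 30.0% and 31.1% in WT and 0.949% and 1.01% in cKO. The other 46 receptors together stood at 577.4 and 572.8 TPM in WT and at 630.7 and 647.7 TPM in cKO. Of these 46, 31 passed the filter, 9 rose and 6 fell, with a median log2 fold change of 0.19. The shares that rose and fell were 29.0% and 19.4%, against 13.7% and 16.8% over all genes. Without WT library 1 the count of changed receptors was 26 instead of 15, and without cKO library 1 or 2 it was 6 or 7.

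Vdr, the vitamin D receptor of bone and gut, was the other abundant receptor that fell steeply, from 169 and 156 to 18.5 and 20.1 CPM (log2 fold change −3.07 ± 0.0788 SE, adjusted p = 5.05e-06). Nr2f2 (COUP-TFII), a receptor of mesenchyme, rose from 4.61 and 5.87 to 45.5 and 46.5 CPM (3.14 ± 0.124, adjusted p = 2.29e-05), and Rarb, a retinoic acid receptor, from 0.887 and 1.03 to 8.63 and 8.66 CPM (3.18 ± 0.183, adjusted p = 0.000101). The receptors nearest to Nr4a1 in WT level, the oxysterol receptor Nr1h2 and the estrogen-related receptor Esrra, had log2 differences of −0.04 (adjusted p = 0.687) and 0.19 (adjusted p = 0.0785).

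**Figure D4:**
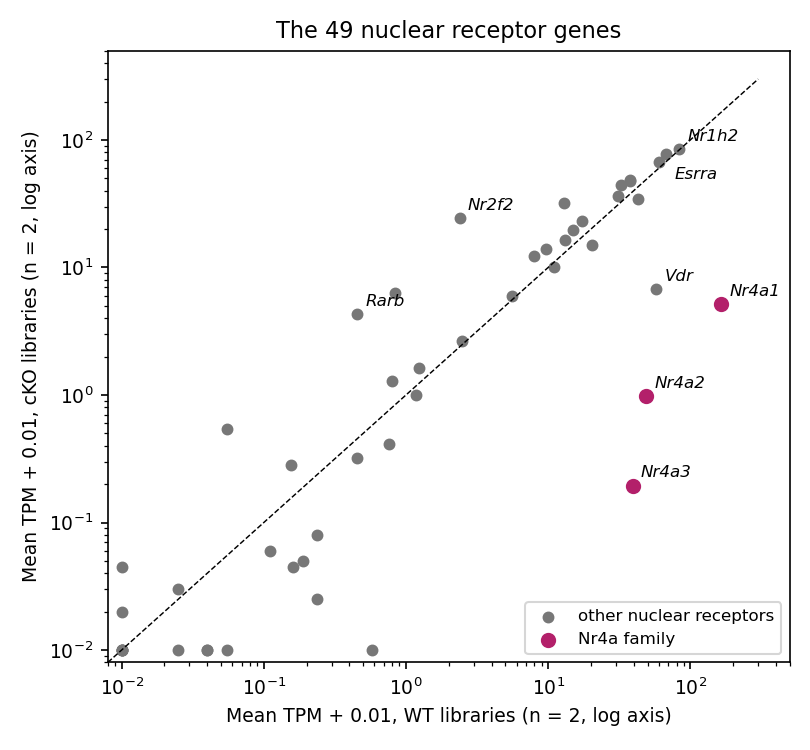
Mean level of each of the 49 nuclear receptor genes (TPM + 0.01, n = 2 per group, log axes) in WT and cKO libraries, with the dashed line at equal levels and the Nr4a genes in magenta. The Nr4a points lie far below the line at WT means of 165, 49.1 and 39.3 TPM, Vdr lies below it at 57.7 against 6.74 TPM, and Nr2f2 and Rarb lie above it.

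Of 28 other immediate early genes tested, 16 fell, 3 rose and 9 did not pass the test. The shares that fell and rose were 57.1% and 10.7%, against 16.8% and 13.7% over all genes. The median log2 fold change of the 28 was −0.86, with a range from −3.22 to 0.52, against −5.09 to −8.66 for the Nr4a genes. Fosb, a partner of Jun in the AP-1 factor, fell from 14.8 and 15.8 to 1.73 and 1.57 CPM (−3.22 ± 0.141 SE, adjusted p = 3.57e-05). The AP-1 genes Fosl1 (−2.5 ± 0.114, adjusted p = 4.09e-05) and Junb (−2.29 ± 0.082, adjusted p = 1.59e-05) fell as well, as did the survival gene Ier3 (−2.54 ± 0.159, adjusted p = 0.00014) and the repressor Nfil3 (−2.31 ± 0.116, adjusted p = 5.89e-05). Not all AP-1 genes fell: Jun rose from 221 and 237 to 305 and 322 CPM (0.45 ± 0.0665, adjusted p = 0.00398), and Jund rose too (0.34 ± 0.0585, adjusted p = 0.00766). Cyr61, a matrix protein gene of the same class, was at 223 and 205 CPM in WT and 218 and 213 in cKO (0.01, adjusted p = 0.95).

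The factors known to act on Nr4a promoters were mostly at similar or higher levels in cKO. Of 21 tested, 9 rose (42.9%, against 13.7% over all genes) and 1 fell (4.76%, against 16.8%), with a median log2 fold change of 0.16. The one that fell was Crem, whose gene makes cyclic AMP-responsive activators and the repressor ICER, from 34.8 and 48.3 to 13.2 and 13.9 CPM (−1.61 ± 0.163 SE, adjusted p = 0.000963). The deacetylases Hdac7 (0.73 ± 0.0714, adjusted p = 0.000876) and Hdac9 (0.79 ± 0.114, adjusted p = 0.00386), which hold MEF2 targets silent, rose, as did the coactivator Ep300 (0.47 ± 0.0643, adjusted p = 0.00303). Ep300 missed the threshold without cKO library 2. Mef2a had a log2 difference of 0.12 (adjusted p = 0.341) and Hdac5 one of −0.15 (adjusted p = 0.105). The count of 10 changed factors was 16 without WT library 1, 4 without cKO library 1 and 3 without cKO library 2.

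Of 19 proteins that bind or modify Nr4a receptors, 7 rose and 1 fell (median 0.19). These were 36.8% and 5.26% of the list, against 13.7% and 16.8% over all genes. Bcl2, which Nr4a1 meets at mitochondria, rose from 10.0 and 9.09 to 21.6 and 19.0 CPM (1.08 ± 0.114 SE, adjusted p = 0.00112), and the LIM protein Fhl2 rose from 33.2 and 45.1 to 72.7 and 69.1 CPM (0.86 ± 0.138, adjusted p = 0.00571). The coactivator Ncoa3 rose too (0.42 ± 0.0595, adjusted p = 0.00365), but missed the threshold without either cKO library. The kinase Stk11 (LKB1), which Nr4a1 binds, had a log2 difference of −0.02 (adjusted p = 0.875). The count of 8 was 14 without either WT library, 3 without cKO library 1 and 2 without cKO library 2.

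Genes described elsewhere as Nr4a targets numbered 14 among those tested, of which 1 rose and 4 fell (median −0.2). These were 7.14% and 28.6% of the 14, against 13.7% and 16.8% over all genes. Slc2a4, the insulin-dependent glucose transporter, fell from 3.67 and 5.94 to 1.82 and 1.76 CPM (−1.42 ± 0.283 SE, adjusted p = 0.0127), and Ret, a receptor kinase of dopamine neurons, from 41.9 and 34.2 to 13.5 and 15.4 CPM (−1.39 ± 0.127, adjusted p = 0.000635). Bglap, the osteocalcin gene, had only 60 and 50 counts in WT and 17 and 24 in cKO (−1.28 ± 0.283, adjusted p = 0.0182), and missed the threshold in DESeq2 and without either cKO library. It lies beside near-identical copies, between which reads may be split. Birc3, an inhibitor of cell death, rose by 0.4 ± 0.0789 (adjusted p = 0.0117), a call lost without either cKO library. Spp1, the osteopontin gene, was at 5860 and 14600 CPM in WT and 5690 and 5630 in cKO (adjusted p = 0.131), so that its WT libraries differed more than the groups did, and the cyclin gene Ccnd1 was at 254 and 164 against 276 and 277 CPM (adjusted p = 0.151). The count of 5 was 10 with no filter on low counts, 11 and 9 without WT library 1 and 2, and 2 without either cKO library.

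Short-lived mRNAs such as those of immediate early genes often carry AU-rich elements, which recruit decay proteins. The 3′UTRs of Nr4a1, Nr4a2 and Nr4a3 held ATTTA 3, 3 and 5 times, counts above those of 69.4%, 69.4% and 83.7% of 17686 genes with a 3′UTR (median 1). These counts were not scaled by length, and the 3′UTRs were 540, 1326 and 3093 nt long, so a longer one can hold more. Of 13 RNA-binding proteins of short-lived mRNAs, 2 rose and 2 fell (median 0.04). That is 15.4% each, near the 13.7% higher and 16.8% lower over all genes. Zfp36 (tristetraprolin), itself an early response gene that destabilises such mRNAs, fell from 70.4 and 64.0 to 34.4 and 32.6 CPM (−1.01 ± 0.0774 SE, adjusted p = 0.000315), and its relative Zfp36l1 fell as well (log2 fold change −0.31 ± 0.0565 SE, adjusted p = 0.00953). The decay protein Rc3h1 rose (0.27 ± 0.0816, adjusted p = 0.0473). Zfp36l1 and Rc3h1 missed the threshold without either cKO library and on both TPM scales in limma, and Rc3h1 also in DESeq2. Zfp36l2 and Hnrnpd had log2 differences of 0.1 (adjusted p = 0.293) and −0.01 (adjusted p = 0.942). The count of 4 was 2 in DESeq2, 7 and 8 without WT library 1 and 2, and 1 without either cKO library.

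**Figure D5:**
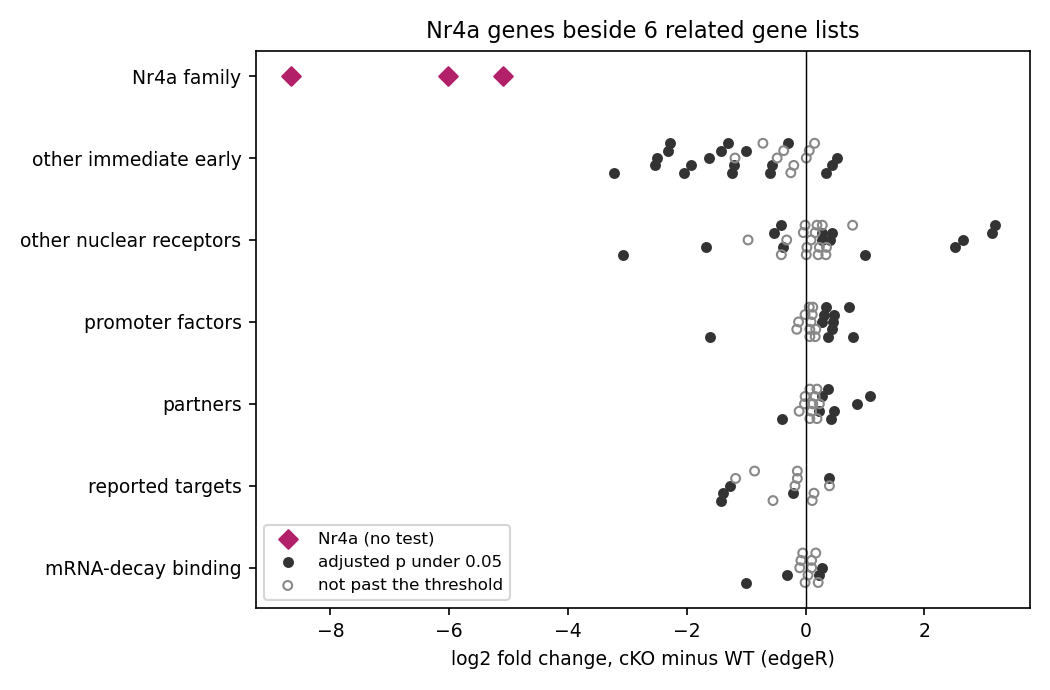
Fitted log2 fold change (cKO minus WT) of the Nr4a genes and of the tested genes of 6 related lists, 1 point per gene, filled where edgeR's adjusted p was under 0.05; 1 tested gene is not drawn. The Nr4a genes lie at −5.09, −6.02 and −8.66, left of every other immediate early gene, whose lowest value is −3.22, and the other lists centre near 0.

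The genes whose pattern over the 4 libraries was most like an Nr4a gene were named by the smallest distance between centred log2 CPM values, among 15066 genes. For Nr4a1 they were Zfp385b (distance 0.187), the imprinted gene Mest (0.2), the matrix proteoglycan Dcn (0.304), Crispld1 (0.305) and the mesenchyme factor Foxf1 (0.388). For Nr4a2 they were the cartilage collagens Col9a2 (0.175) and Col9a1 (0.33), with Susd5 (0.277), Scrg1 (0.331) and Scin (0.398). For Nr4a3 they were Lect1 (chondromodulin, 0.575), Ucma (0.709) and Col9a3 (1.19), all of cartilage, Acan (1.19) and the homeobox gene Barx1 (1.57). Nr4a1 and Nr4a2 were 0.916 apart, while Nr4a3 was 2.65 from Nr4a2 and 3.47 from Nr4a1. With 2 libraries per group such a distance reflects mainly the size of the difference, and for Zfp385b, Scin, Lect1, Ucma and Barx1, which had at most 4 counts in a cKO library, it also depends on the prior count.

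Genes next to the Nr4a genes did not show differences of that size. Within 250 kb of Nr4a1, 7 other genes were tested, 3 were lower and none higher, with log2 fold changes from −0.81 (Krt7) to 1.86 (Krt80). Near Nr4a2 neither of 2 tested genes passed the threshold (Gpd2 at −0.22). Near Nr4a3 1 of 3 was lower (lowest Erp44, −0.24). Among all genes tested, 16.8% were lower and 13.7% higher, and these neighbours are too few to set a share beside that. No other entry of the table overlapped an Nr4a gene, and the longest identical stretch between 2 of their transcripts was 27 nt (Nr4a2 and Nr4a3), against 24 nt and 14 nt for Nr4a1 with Nr4a3 and Nr4a2.

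Of the 3 genes, only Nr4a1 had an m6A peak in the deposited list of 10160 peaks from wild-type MSCs. It lay at chr15:101100847-101101076 on mm9, 230 bases within exon 2 of 7 and wholly in coding sequence, with its summit at 101101000, 484 nt after the start codon and 1319 nt before the stop codon. The sequence is shown, on the plus strand, because it holds GGAC, the core of the motif that Mettl3 methylates, in capitals.
Nr4a1 m6A peak: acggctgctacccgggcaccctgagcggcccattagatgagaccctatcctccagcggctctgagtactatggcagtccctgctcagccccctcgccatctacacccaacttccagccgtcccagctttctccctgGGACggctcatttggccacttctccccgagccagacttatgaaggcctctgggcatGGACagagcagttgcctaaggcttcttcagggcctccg
The 2 GGAC lay 17 bases before and 39 bases after the summit. Of 8713 peaks in genes of 1 strand, 82.9% had at least 1 GGAC and 53.3% at least 2 in a window of 230 bases around the summit.

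The peak was a modest one. Its pileup signal was 33 fragments (median of all peaks 60), its fold enrichment 3.59 (median 4.03) and its −log10 q 7.41 (median 14.2). On these 3 measures 25.7%, 39.5% and 18.9% of peaks were lower, and it was absent when only peaks with a −log10 q of at least 10 were kept. Along its 2474 nt the Nr4a1 transcript held 22 GGAC, 8.89 per kb, a density above that of 97.2% of 22737 genes (median 4.04). Nr4a2 held 16 (4.48 per kb, above 58.4%) and Nr4a3 held 16 (2.8 per kb, above 25.0%), and neither had a peak.

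Among tested protein-coding genes, 43.1% had at least 1 peak. Among the 500 genes nearest in WT level the share was 38.8% for Nr4a1, 47.2% for Nr4a2 and 51.8% for Nr4a3, and among the other nuclear receptors tested 12 of 31 (38.7%) had one. The list holds no values per sample, so that the depth behind it is unknown and the peak has no replicate error. No peak list of cKO cells was analysed here, so whether this peak depends on Mettl3 was not tested.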

How the data were processed

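RNA-seq was done on 2 WT and 2 cKO libraries and m6A MeRIP-Seq on 2 immunoprecipitates and 2 inputs, grouped by the sample labels. The submitters' processing notes name HISAT2 2.0.4, TopHat and MACS2, and the builds mm10 and mm9. The authors deposited estimated counts per gene and values headed FPKM that sum to 1000000 in each library, which are used as TPM. They also deposited 1 peak list, with the pileup signal, the fold enrichment as a ratio, and −log10 p- and q-values, and whether samples were pooled is not given in the sources used here. Its positions were read on mm9 with GENCODE vM1.

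Libraries held 23978099 to 34106693 counts. The 89 of 47732 entries without a gene name (0.110% to 0.125% of counts) were left out. Estimated counts were tested as rounded whole numbers, for the genes that filterByExpr kept, with edgeR 4.0.16 (TMM factors, glmQLFTest, two-sided) and a Benjamini-Hochberg adjustment over 15327 genes. A standard error is that of the log2 fold change. Alternatives were a replicate block, no filter, median-of-ratios factors, DESeq2 1.42.0, limma 3.58.1 on log2(TPM + 0.1) and log2(TPM + 1), and each library left out. In the last, the lone library is assumed to vary like the other group.

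The members, gene lists and tests were chosen with earlier results of these data known. Named from each list were the 4 members past the threshold with the largest absolute log2 fold changes and the 2 with the highest TPM, and for cell type markers fewer are given. Of these genes, some are not reported here. Likeness used genes with a mean of at least 10 counts and a prior count of 2. Neighbouring genes and the Mettl3 check stand outside the list rule. So do TGACGCA, Jun, Jund, Cdh5, Pecam1, Matn1 and Matn3, which were chosen after values were seen. Lists were nuclear receptors, immediate early genes, promoter factors, partners, targets, AU-rich element binding proteins and 7 sets of cell type markers. Mrtfa, Mrtfb, Roquin and Ccn1 did not match the table by name. Promoter sequences are from RefSeq, GRCm38.p6, and all 3 genes matched.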

Additional observations from a re-analysis of the deposited data

How the results depend on the processing

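The Nr4a log2 fold changes kept their sign under all 10 alternatives. With a pseudocount they were smaller: −4.75 for Nr4a1 on log2(TPM + 1), −5.52 and −4.67 for Nr4a2 on log2(TPM + 0.1) and log2(TPM + 1), and −7.11 and −5.09 for Nr4a3. A pseudocount shrinks low levels by construction. Leaving out 1 library in turn gave −5.20 to −4.99, −6.14 to −5.90 and −9.24 to −8.32. Counts of list genes called ranged in the same way from 6 to 26 for nuclear receptors, 3 to 16 for promoter factors, 2 to 14 for partners, 2 to 11 for targets, 1 to 8 for AU-rich element binding proteins and 13 to 24 for immediate early genes; without a cKO library fewer were called and without a WT library more, and the cause was not tested. With no filter 10 targets were called, and in DESeq2 2 AU-rich element binding proteins. The Nr4a1 peak was lost at a −log10 q of at least 10, leaving 0. The replicate numbers were not shown to pair the samples (r of the deviations 0.032, with only 2 pairs). With the number as a block, 4881 genes were called over all genes against 4677, the log2 fold changes of Nr4a1, Nr4a2 and Nr4a3 were −5.10, −6.03 and −8.66, and the list counts were 16, 10, 7, 7, 4 and 20, in the order above. Depth limits the cKO level of Nr4a3 most, at 6 and 15 counts.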
